A study of Mus musculus with 24 samples.

Results

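The genes described here are 10 heat shock and chaperone genes, chosen by name from the 24421 genes of the deposited count table and grouped by the compartment in which their proteins work. The cytosolic group has 6 genes (Hspb1, Hspa1a, Hspa1b, Hspa8, Hsph1 and Dnajb1), the endoplasmic reticulum (ER) group has 2 (Hspa5 and Pdia4) and the mitochondrial group has 2 (Hspd1 and Hspe1). All 10 were found in the table, and all 10 were among the 16316 genes that passed the filter on low counts. The RNA came from cortex at 7.5 months of age, in 24 libraries, and every mouse carried 5xFAD, a set of human transgenes with mutant amyloid precursor protein and presenilin, expressed in neurons, that leads to amyloid plaques. On that background 4 genotypes were compared, with 6 libraries each: WT, which carries neither knockout, Trem2KO, which lacks Trem2, Plcg2KO, in which both copies of Plcg2 are knocked out, and Plcg2HET, labelled as having 1 copy knocked out. Plcg2KO had 4 males and 2 females and the other groups 3 of each sex. Libraries carry the codes of their labels, M for males and F for females with a replicate number, and a second number in each label is taken here as that of the mouse. The labels name no cell type or promoter for the knockouts, no mouse without 5xFAD was analysed here, and the study asked how loss of Plcg2 or Trem2 changes the response to amyloid.

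Chaperones are proteins that help other proteins fold, keep them from clumping and hand damaged ones on for degradation. In the cytosol, a rise in unfolded protein frees heat shock factors such as HSF1, which bind heat shock elements in DNA and switch on genes for HSP70, its partners and small heat shock proteins. In the ER, unfolded protein activates sensors whose transcription factors act through ER stress response elements, and mitochondria have a chamber-forming chaperonin of their own. In brain, HSPA8 is the abundant constitutive HSP70 of neurons, whereas the inducible HSP70 genes and Hspb1 are low without stress and HSPB1 is found in glia and vessels.

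Before the results, 3 properties of the libraries bear on every value below. Total counts were 36.3 to 83.0 M (mega) per library. A ribosomal RNA precursor, Rn45s, was over 5% of the counts in 3 libraries: Plcg2HET F3 (29.0%), Plcg2HET F1 (5.29%) and WT F1 (9.59%). Each library's deviations from the gene means were also correlated with the GC content of the genes (the GC trend, a Spearman value across genes), and here the Plcg2HET libraries fell into separate sets. The GC trend was 0.295 to 0.567 in the 4 libraries M1, M2, F1 and F3 and -0.458 and -0.391 in M3 and F2, against -0.515 to 0.275 in WT, -0.0844 to 0.532 in Trem2KO and -0.586 to -0.289 in Plcg2KO. Values of the 10 genes in Plcg2HET against WT are therefore given with all 6 libraries, with those 4 and with those 2. The sets of 4 and 2 were formed after seeing the data, by a trend computed from the same counts. Adjusted p-values and calls from fits with these sets are therefore descriptions and not independent tests. The share of all genes called also differed between these fits, at 44.2% with the 4 libraries, 26.1% with the 2 and 22.5% with offsets for GC content and length. The sources used here name no batch or date, and the mouse numbers of the groups do not overlap (1177 to 1190 in WT, 3 to 14 in Plcg2HET), so genotype cannot be told apart from a cohort that coincides with it. In Trem2KO libraries Trem2 stood at 4.59 to 7.45 CPM (counts scaled to library size), against 46.5 to 119 in WT, and in Plcg2KO libraries Plcg2 stood at 0.739 to 1.20 CPM, against 7.73 to 15.2 in WT. In the libraries labelled Plcg2HET, Plcg2 stood at 5.89 to 19.8 CPM, with no drop against WT (log2 fold change 0.02, edgeR adjusted p = 0.95), so the level of that gene did not set them apart from WT. Plcg2HET stands for the libraries labelled so throughout.

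Promoter sequences are shown first because the genes differ in the elements near their start sites, though not strictly by compartment. RefSeq start sites on GRCm38.p6, the assembly of mm10, were matched for 9 of the 10 genes. Hspa8 was not matched. A window of 250 bases before to 50 bases after each start was searched on both strands for a 2-unit heat shock element (GAANNTTC or TTCNNGAA), a 3-unit element (GAANNTTCNNGAA or TTCNNGAANNTTC, which contains the shorter forms), and the ER stress response element (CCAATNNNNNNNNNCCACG, which contains the CCAAT box). Of 32851 promoter windows of this length, 15.1% held the 2-unit form, 0.603% the 3-unit form and 0.119% the ER element. A match is a description of letters, not evidence that a factor binds there.

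The cytosolic genes shown had 2-unit matches. In the 150 bases before the start of Hspb1 (chr5:135887769-135887918, plus strand), 2 matches lay at -117 to -110 and -97 to -90 from the start, given in capitals.
Hspb1: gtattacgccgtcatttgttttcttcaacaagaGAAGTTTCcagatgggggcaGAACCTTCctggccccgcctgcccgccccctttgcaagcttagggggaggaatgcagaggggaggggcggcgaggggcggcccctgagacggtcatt

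Hspa1a (chr17:34972157-34972306, minus strand) and Hspa1b (chr17:34959239-34959388, minus strand) are neighbouring copies, 10120 bases apart, and their 150 bases before the start were the same at 149 of 150 positions. Each had 1 match at -104 to -97, in capitals, and a CCAAT box at -67 to -63.
Hspa1a: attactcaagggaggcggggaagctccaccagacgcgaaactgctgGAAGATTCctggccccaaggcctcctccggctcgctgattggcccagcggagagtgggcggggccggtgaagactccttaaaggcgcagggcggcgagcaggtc
Hspa1b: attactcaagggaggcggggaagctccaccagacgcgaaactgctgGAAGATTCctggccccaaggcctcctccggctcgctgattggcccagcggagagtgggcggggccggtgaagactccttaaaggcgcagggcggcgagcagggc

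Hsph1 (chr5:149636316-149636465, minus strand) had 1 match upstream, at -54 to -47, in capitals, and a 3-unit match downstream of the start at 15 to 27. Dnajb1 and Pdia4 had no heat shock element or ER element of these forms in the window.
Hsph1: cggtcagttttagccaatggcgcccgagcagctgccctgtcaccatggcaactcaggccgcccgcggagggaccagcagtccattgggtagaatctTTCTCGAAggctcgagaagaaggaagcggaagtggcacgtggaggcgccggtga

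Hspa5 (chr2:34771940-34772089, plus strand) was the gene among the 9 with the ER stress response element, at -65 to -47, in capitals, and its window held 4 CCAAT boxes, counting the one inside that element.
Hspa5: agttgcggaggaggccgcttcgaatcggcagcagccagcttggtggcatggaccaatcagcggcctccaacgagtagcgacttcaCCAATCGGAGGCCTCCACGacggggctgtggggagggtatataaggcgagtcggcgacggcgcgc

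The mitochondrial genes lie head to head. The 215 bases between their starts (chr1:55087933-55088147) serve as the upstream sequence of both, shown in the direction of Hspe1, and hold overlapping 3-unit heat shock elements that together run from -89 to -72 of Hspe1, in capitals. Hspd1 also has a RefSeq start 311 bases from the one used here. The window of that start held 0 heat shock elements.
Hspe1: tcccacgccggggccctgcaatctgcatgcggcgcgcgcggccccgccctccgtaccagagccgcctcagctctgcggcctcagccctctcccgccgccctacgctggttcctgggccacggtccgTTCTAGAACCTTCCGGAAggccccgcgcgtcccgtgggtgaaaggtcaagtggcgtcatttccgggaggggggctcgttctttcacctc

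The genes differ widely in level. On the deposited TPM scale, which allows for gene length, Hspa8 led at a mean level of 3653 TPM over the 24 libraries and was above every other gene of the set in all 24. Hspe1 (268 TPM), Hspa5 (238 TPM) and Hsph1 (225 TPM) followed. Hspe1 was above Hspa5 in 19 of 24 libraries and Hspa5 above Hsph1 in 15 of 24, so the order of these 3 was not steady across libraries. Hspd1, at 175 TPM, was below Hsph1 in 24 of 24 libraries and above Dnajb1 (57.1 TPM) in 24 of 24. Dnajb1 was above Pdia4 (47.8 TPM) in 21 of 24. Hspa1a (19.6 TPM), Hspb1 (17.3 TPM) and Hspa1b (12.2 TPM) were the lowest, and Hspa1a was above Hspb1, and Hspb1 above Hspa1b, in 17 of 24 each. Some of these levels depend on reads that fit several genes. Of the 100-base stretches of the transcript, 48.6% for Hspa1a and 49.9% for Hspa1b also occur in another gene, mostly the other copy, as do 56.3% for Hspb1, all in the pseudogene Hsp25-ps1, 62.8% for Hspa8, 26.9% for Hspd1 and 20.4% for Hspe1. The deposited expected counts were 2.25 times the read counts for Hspa1a, 1.77 times for Hspa1b, 1.28 times for Hspa8 and 1.16 times for Hspb1, and 0.908 to 0.988 times for the other 6, so the split between Hspa1a and Hspa1b is uncertain.

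In the cortex labelled Plcg2HET, 7 of the 10 genes were higher than in WT and 0 were lower. They were 5 of the 6 cytosolic genes and both ER genes, while neither mitochondrial gene was called. A gene is called here at an adjusted p under 0.05 in edgeR's quasi-likelihood test over all genes, and in this comparison 10.9% of the 16316 genes were called higher and 7.13% lower. The median log2 fold change of the 10 genes was 0.48, against -0.01 over all genes tested. Fewer cells of a type and less RNA per cell cannot be told apart in these bulk samples.

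**Figure D1:**
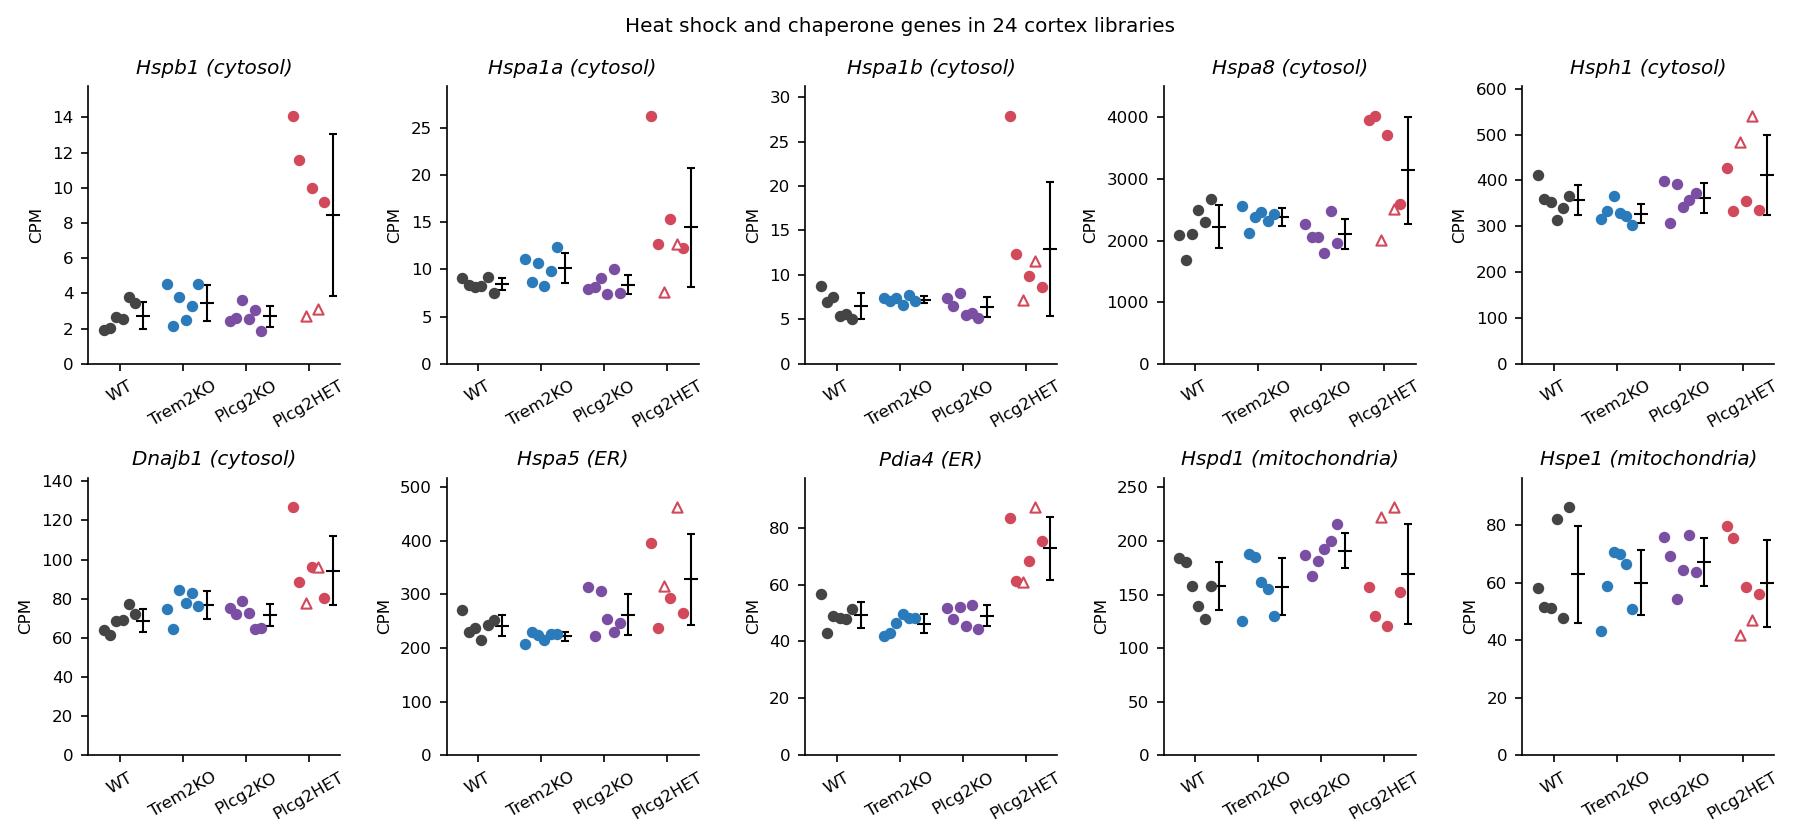
CPM of each gene in the 24 libraries by genotype, with linear axes from 0; the bar beside each group is the mean ± SD (n = 6). Open triangles mark Plcg2HET M3 and F2, the libraries with a negative GC trend. Hspb1 is near the WT level in these 2 and high in the other 4, while Hsph1 and Hspd1 are highest in these 2, and Pdia4 is above the WT range in all 6.

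Hspb1 (chromosome 5, 135887919 to 135889563, plus strand, 903 bases of exons, mm10) encodes a small heat shock protein that holds unfolding proteins and binds actin filaments. In WT its lowest, median and highest levels were 1.91, 2.59 and 3.78 CPM. In Plcg2HET they were 2.698, 9.57 and 14.1 CPM. The libraries split sharply: M1 stood at 14.1 CPM, M2 at 11.6, F1 at 9.97 and F3 at 9.17, all above every other library of the study, while M3 at 2.698 and F2 at 3.10 lay within the WT range. The log2 fold change was 1.62 (SE 0.31, adjusted p = 0.00115), the largest of the 10. With the 4 libraries alone it was 2.05 (adjusted p = 7.39e-08), and with M3 and F2 alone it was 0.11 and not called (adjusted p = 0.81). Hspb1 has the most GC-rich transcripts of the set (61.2%). Over the 24 libraries, after genotype means were subtracted, log2 CPM of Hspb1 and the GC trend had a Pearson correlation of 0.825, a description over libraries that differ in many genes at once. The same value was 0.756 for Hspa8, -0.696 for Hsph1 and -0.887 for Hspd1, and it was 0.0974 for Pdia4. The GC content of these genes was 48.8% for Hspa8, 47.3% for Hsph1, 51.9% for Hspd1 and 51.6% for Pdia4. Across them the correlation did not rise steadily with GC content. In Trem2KO libraries with GC trends in the range of those 4 Plcg2HET libraries, Hspb1 stood at 4.56 CPM in M1 (0.421), 2.48 in F1 (0.393), 3.29 in F2 (0.311) and 4.52 in F3 (0.532). M1 and F3 had the highest GC trends of the Trem2KO libraries and also the highest Hspb1. With offsets that remove each library's trends with GC content and length, the log2 fold change of Hspb1 was 1.44 (adjusted p = 0.000165). The part of the GC trend in the Hspb1 values was not tested.

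The inducible HSP70 genes followed a similar course. Hspa1a (chromosome 17, 34969359 to 34972156, minus strand, 2798 bases of exons) stood at 7.47, 8.32 and 9.17 CPM in WT (lowest, median and highest) and at 7.57, 12.7 and 26.3 CPM in Plcg2HET. All Plcg2HET libraries but M3 were above the WT range. Its log2 fold change was 0.78 (SE 0.18, adjusted p = 0.0042). Hspa1b (chromosome 17, 34956429 to 34959238, minus strand, 2810 bases of exons) stood at 4.98, 6.25 and 8.77 CPM in WT and at 7.20, 10.7 and 27.9 CPM in Plcg2HET, where 4 of 6 libraries were above the WT range. Its log2 fold change was 0.98 (SE 0.20, adjusted p = 0.00164). M1 was by far the highest library for both, and without it the log2 fold changes were 0.51 for Hspa1a (adjusted p = 0.0134) and 0.65 for Hspa1b (adjusted p = 0.00368). With the 4 libraries of positive GC trend alone they were 0.99 and 1.14 (adjusted p = 1.3e-05 and 1.34e-05). With M3 and F2 alone Hspa1b was still called (0.57, adjusted p = 0.0175) and Hspa1a was not (0.27, adjusted p = 0.226). With the expected counts the values were 0.80 for Hspa1a and 0.88 for Hspa1b (adjusted p = 0.00289 and 0.00358). The tool behind these counts, and so its handling of reads shared between the copies, is not named.

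Hspa8 (chromosome 9, 40801273 to 40805199, plus strand, 2104 bases of exons) is the constitutive HSP70, which also strips clathrin from vesicles at synapses. In WT it stood at 1684, 2201 and 2674 CPM and in Plcg2HET at 2015, 3156 and 4027 CPM. M1, M2 and F1 lay between 3720.1 and 4027 CPM, above every other library, and M3, F2 and F3 lay within the WT range. The log2 fold change was 0.50 (SE 0.14, adjusted p = 0.013). With the 4 libraries alone it was 0.70 (adjusted p = 3.36e-05), and with M3 and F2 alone 0.04 (adjusted p = 0.842).

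Dnajb1 (chromosome 8, 83608175 to 83612653, plus strand, 3227 bases of exons) encodes an HSP40 that delivers clients to HSP70. It stood at 61.4, 68.9 and 77.3 CPM in WT and at 77.6, 92.3 and 127 CPM in Plcg2HET, and the groups did not overlap. The lowest Plcg2HET library, M3, was only just above the highest WT library. The log2 fold change was 0.45 (SE 0.10, adjusted p = 0.0034), and it was called with the 4 libraries alone (0.52, adjusted p = 0.000209) and with M3 and F2 alone (0.34, adjusted p = 0.0166).

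Hsph1 (chromosome 5, 149616845 to 149636315, minus strand, 3478 bases of exons) encodes HSP110, which swaps the nucleotide of HSP70. It was the cytosolic gene that was not called (log2 fold change 0.21, 95% interval -0.01 to 0.43, adjusted p = 0.18). WT stood at 314, 356 and 411 CPM and Plcg2HET at 333, 390.2 and 541 CPM. Its pattern over the Plcg2HET libraries ran opposite to that of Hspb1: M3 at 484 CPM and F2 at 541 CPM were the 2 highest libraries of the study, M1 stood at 426, and M2, F1 and F3 lay within the WT range. With M3 and F2 alone Hsph1 was called (0.53, adjusted p = 0.000473), with the 4 libraries alone it was not (0.03, adjusted p = 0.827), and with GC and length offsets it was (0.26, adjusted p = 0.0194).

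In the ER group, Hspa5 (chromosome 2, 34772090 to 34776529, plus strand, 2616 bases of exons) encodes BiP, the HSP70 of the ER. It stood at 215, 239.9 and 272 CPM in WT and at 238, 304 and 463 CPM in Plcg2HET. F2 at 463 CPM, M1 at 395, M3 at 315 and F1 at 293 were above the WT range, and M2 and F3 were within it. The log2 fold change was 0.44 (SE 0.12, adjusted p = 0.0145), with 0.31 in the 4 libraries alone (adjusted p = 0.023) and 0.70 in M3 and F2 alone (adjusted p = 0.000268). Pdia4 (chromosome 6, 47796141 to 47813512, minus strand, 2481 bases of exons) encodes a protein disulfide isomerase, which forms and rearranges disulfide bonds, and its span also holds the microRNA genes Mir704 and Mir1957a. It stood at 43.0, 48.6 and 56.8 CPM in WT and at 60.8, 71.7 and 87.2 CPM in Plcg2HET, with no overlap. Its log2 fold change of 0.56 (SE 0.09, adjusted p = 0.00037) had the smallest p of the 10. It moved least between the sets of libraries, at 0.55 in the 4 and 0.59 in M3 and F2 (adjusted p = 2.48e-05 and 0.000355).

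The mitochondrial pair was not called. Hspd1 (chromosome 1, 55077834 to 55087932, minus strand, 2332 bases of exons) encodes HSP60, the chaperonin ring, and Hspe1 (chromosome 1, 55088148 to 55091317, plus strand, 768 bases of exons) encodes HSP10, its lid. Hspd1 stood at 127, 158 and 184 CPM in WT and at 121, 155 and 232 CPM in Plcg2HET. M3 at 223 CPM and F2 at 232 CPM were above the WT range and F1 at 121 CPM was below it. The log2 fold change was 0.10 (95% interval -0.19 to 0.39, adjusted p = 0.659), and it was -0.16 in the 4 libraries alone (adjusted p = 0.264) and 0.54, and called, in M3 and F2 alone (adjusted p = 0.005). Hspe1 stood at 47.8, 55.0 and 86.3 CPM in WT and at 42.0, 57.3 and 79.7 CPM in Plcg2HET, with M3 (42.0) and F2 (47.0) below the WT range. Its log2 fold change was -0.06 (95% interval -0.40 to 0.27, adjusted p = 0.833), with 0.12 in the 4 libraries alone (adjusted p = 0.577) and -0.48 in M3 and F2 alone (adjusted p = 0.0685). In these 2 libraries Hspd1 was thus high and Hspe1, without a call, was low, in F2 only just below the WT range. The 2 genes share the sequence between the starts used here, and Hspd1 has a further start. Their correlations with the GC trend, after genotype means were subtracted, were -0.887 for Hspd1 and 0.304 for Hspe1. The part of that trend in this contrast was not tested.

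**Figure D2:**
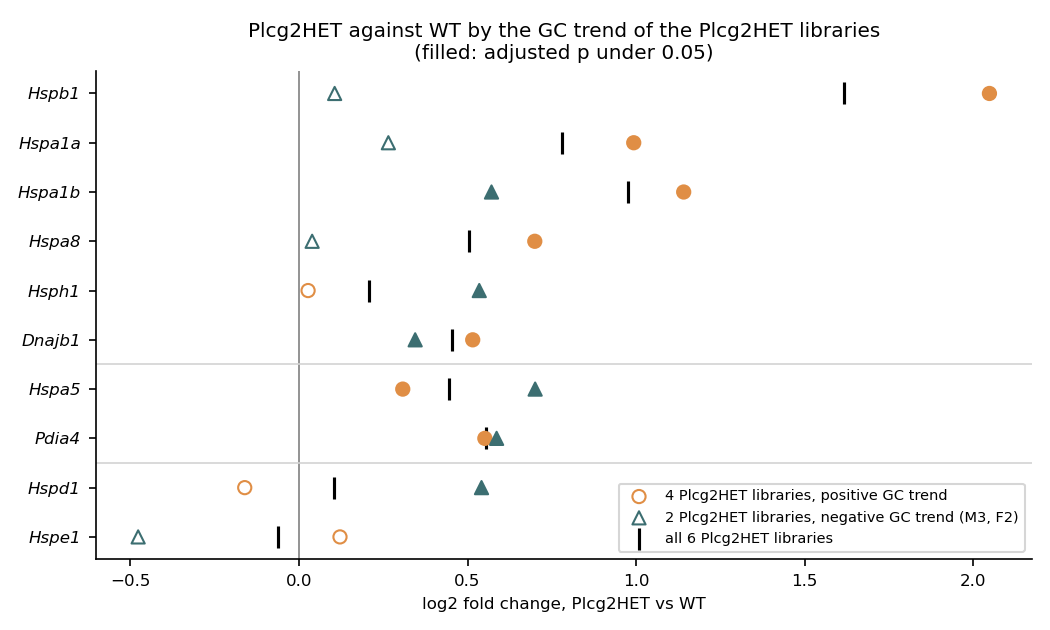
Log2 fold change of each gene in Plcg2HET against WT with all 6 Plcg2HET libraries (bars), the 4 with a positive GC trend (circles) and the 2 with a negative one (triangles); filled symbols have an adjusted p under 0.05. Pdia4 and Dnajb1 lie close together in all fits, while Hspb1, Hspa1a, Hspa1b, Hspa8, Hsph1, Hspd1 and Hspe1 lie far apart. Hspa5 is intermediate, at 0.31 and 0.70.

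Counted by library, M1 had 8 of the 10 genes above the WT range, F1 and F2 had 7, M2 had 6, M3 had 5 and F3 had 4. Below the WT range were Hspe1 in M3 and F2 and Hspd1 in F1. The share of all genes above or below the WT range was not counted, here or for the knockouts. Nor was the share of genes whose groups did not overlap, as for Dnajb1 and Pdia4. These counts are therefore descriptions of the 10 genes alone. Of the 10 genes 7 were called with the 4 libraries alone and 6 with M3 and F2 alone, where Hsph1 and Hspd1 were called and Hspb1, Hspa1a and Hspa8 were not. In those fits 7279 and 4392 of all genes were called, 44.2% and 26.1%. With GC and length offsets 8 were called, beside 22.5% of all genes. Without the 3 libraries rich in Rn45s the same 7 genes were called as with all libraries, with adjusted p from 0.00572 for Pdia4 to 0.0463 for Hspa8. That fit called 4.89% of all genes. Leaving out each of the 12 libraries in turn changed none of the 10 calls. In males alone 0 genes were called by edgeR and in females alone 2, Hspa1b and Pdia4, although in males the log2 fold change of Hspb1 was 2.11 (adjusted p = 0.0803). Those fits called 0.0305% of all genes in males and 2.53% in females.

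**Figure D3:**
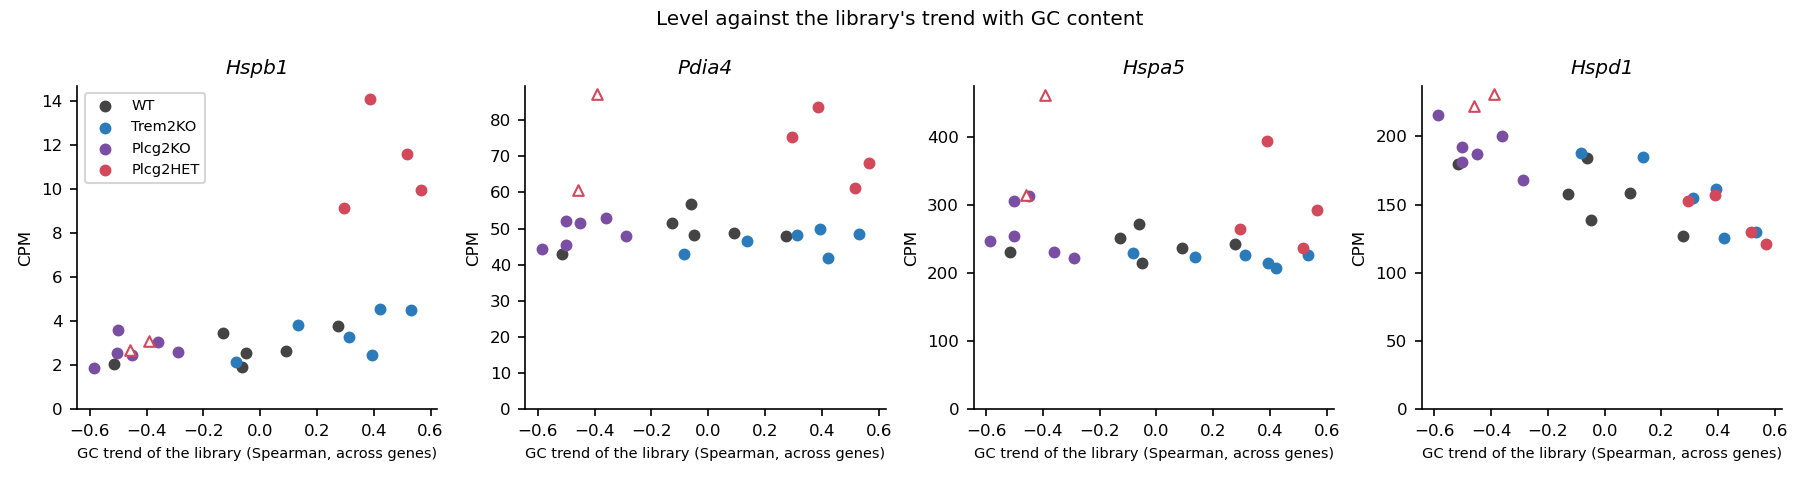
CPM of Hspb1, Pdia4, Hspa5 and Hspd1 against the GC trend of each of the 24 libraries; triangles are Plcg2HET M3 and F2. At GC trends of 0.295 to 0.567, Hspb1 is higher in 4 Plcg2HET libraries (9.17 to 14.1 CPM) than in Trem2KO (2.48 to 4.56 CPM), while Hspd1 is highest in Plcg2HET M3 and F2 (223 and 232 CPM), at GC trends of -0.458 and -0.391. The part of the GC trend in these levels was not tested.

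In Plcg2KO cortex, 0 of the 10 genes were called against WT, by edgeR or DESeq2, and 0 had an unadjusted p under 0.05. Over all genes 5.44% were called higher and 7.63% lower in this comparison, and the median log2 fold change of the 10 was 0.01. Hspb1 stood at 1.86 to 3.60 CPM (median 2.57), Hspa1b at 5.13 to 8.01 CPM and Pdia4 at 44.3 to 53.0 CPM, each overlapping WT. Hspb1 had a log2 fold change of -0.02 with a wide 95% interval (-0.67 to 0.62), while for Pdia4 the change was 0.00 (-0.19 to 0.19) and for Dnajb1 0.05 (-0.16 to 0.26). Hspd1 moved most, at 168 to 215 CPM against 127 to 184 in WT, with 4 of 6 libraries above the WT range (log2 fold change 0.27, 95% interval -0.02 to 0.56, adjusted p = 0.226). Fitted with WT and Plcg2KO libraries only, Hspd1 was called (0.27, adjusted p = 0.0446), in a fit that called 22.3% of all genes.

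In Trem2KO cortex, 0 of the 10 genes were called against WT, by edgeR or DESeq2, and 0 had an unadjusted p under 0.05. Over all genes 7.56% were called higher and 8.16% lower, and the median log2 fold change of the 10 was 0.05. Hspb1 stood at 2.15 to 4.56 CPM (median 3.55), with 3 of 6 libraries above the WT range (0.35, 95% interval -0.28 to 0.98, adjusted p = 0.485). Hspa1a stood at 8.27 to 12.4 CPM, with 4 of 6 above the WT range (0.27, 95% interval -0.10 to 0.64, adjusted p = 0.334), and it was called when WT and Trem2KO libraries were fitted alone (0.28, adjusted p = 0.0388), in a fit that called 29.9% of all genes. Both ER genes had values below 0, -0.12 for Hspa5 (95% interval -0.38 to 0.13) and -0.10 for Pdia4 (-0.28 to 0.09), and Hspd1 stood at -0.00 (-0.29 to 0.29).

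**Figure D4:**
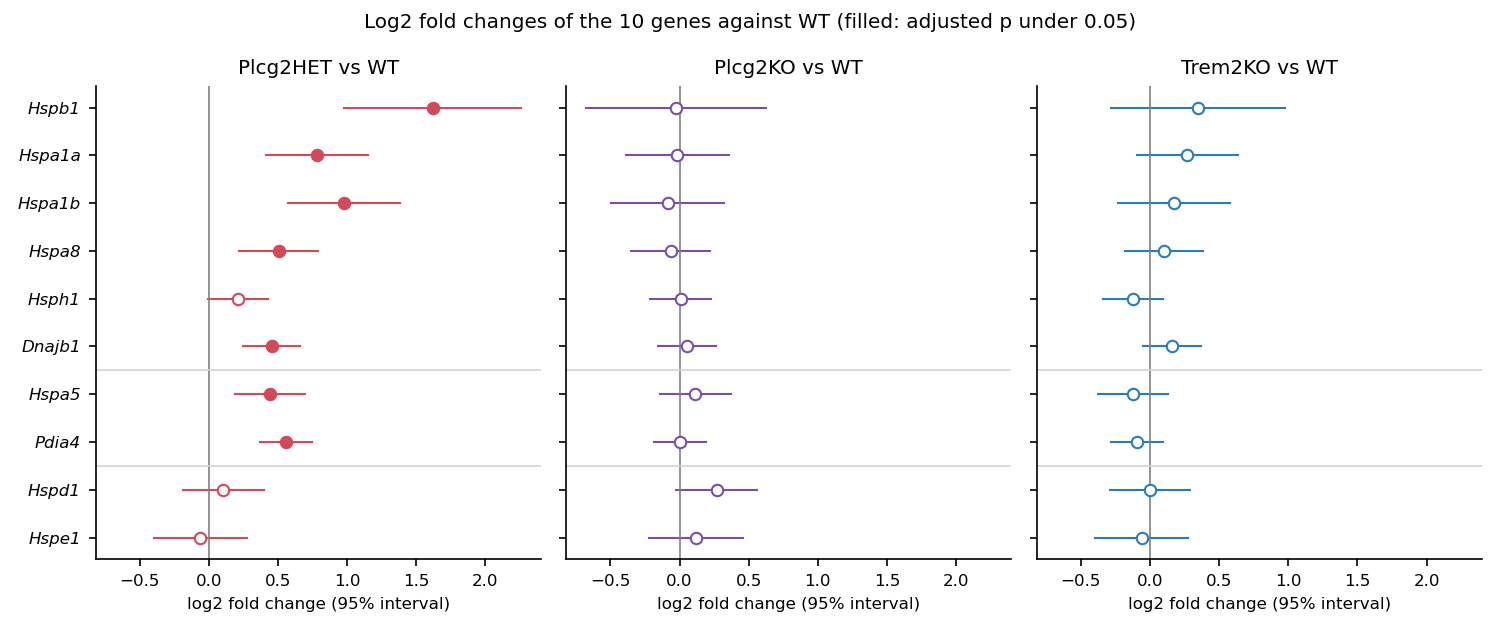
Log2 fold changes against WT with 95% intervals for the 10 genes in Plcg2HET, Plcg2KO and Trem2KO; filled points have an adjusted p under 0.05, and grey lines part cytosol, ER and mitochondria. In Plcg2HET 7 points are filled, from 0.44 (Hspa5) to 1.62 (Hspb1), and in both knockouts 0 are.

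The 2 knockouts were also compared with Plcg2HET and with each other. Comparisons with Plcg2HET share its libraries with the comparison against WT and are given for the size of the difference. Between Plcg2KO and Plcg2HET, 15.0% of all genes were higher and 20.2% lower in Plcg2KO, and 7 of the 10 genes were lower with 0 higher. On the log2 scale Hspb1 was lower, at -1.64 with an SE of 0.31 (adjusted p = 0.000309), and Hspa1b fell by 1.06 (adjusted p = 0.000281), Hspa1a by 0.80 (adjusted p = 0.00159), Hspa8 by 0.57 (adjusted p = 0.00292) and Dnajb1 by 0.40 (adjusted p = 0.00407). Pdia4 fell by 0.55 (SE 0.09, adjusted p = 8.47e-05), and its groups did not overlap. The share of all genes whose groups did not overlap was not counted here either. Hspa5 fell by 0.33 (adjusted p = 0.042), a call that was lost without Plcg2KO M2, M4, F1 or F2 or Plcg2HET M1 or F2 (adjusted p from 0.07 to 0.131). Hspd1 (0.16, adjusted p = 0.386) and Hspe1 (0.18, adjusted p = 0.405) were not called. With the 4 libraries of positive GC trend as Plcg2HET, 57.9% of all genes were called and 7 of the 10: Hspb1 (-2.07), Hspa1a (-1.01), Hspa1b (-1.24), Hspa8 (-0.76), Dnajb1 (-0.47) and Pdia4 (-0.55) lower, and Hspd1 (0.43) higher, in Plcg2KO. With M3 and F2 as the only Plcg2HET libraries, 17.6% of all genes were called and 5 of the 10: Hspa1b (-0.62), Hsph1 (-0.51), Hspa5 (-0.57) and Pdia4 (-0.56) lower, and Hspe1 (0.64) higher, in Plcg2KO. Markers of several cell types moved with this comparison. Microglial markers were lower in Plcg2KO in 10 of 10 (median -1.10), pericyte and smooth muscle markers in 5 of 10 (median -0.57) and endothelial markers in 4 of 10 (median -0.24), and their part in the result was not tested.

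Between Trem2KO and Plcg2HET, 6.27% of all genes were higher and 9.28% lower in Trem2KO, and 7 of the 10 genes were lower with 0 higher. Pdia4 fell by 0.65 (SE 0.09, adjusted p = 1.62e-05) and Hspa5 by 0.57 (SE 0.12, adjusted p = 0.00236), and for both the groups did not overlap. The share of all genes without overlap was not counted in this comparison. Hspb1 fell by 1.27 (adjusted p = 0.0048) and Hspa1b by 0.80 (adjusted p = 0.00588). The other 3 calls lay close to the threshold. Hspa8 fell by 0.40 (adjusted p = 0.0479), lost without any 1 of the 6 Trem2KO libraries or Plcg2HET M1, M2 or F1 (adjusted p from 0.0544 to 0.145, log2 fold change from -0.43 to -0.30). Hsph1 fell by 0.33 (adjusted p = 0.0339), lost without any 1 of Trem2KO M1, M2, F1, F2 and F3 or Plcg2HET M1, M3 and F2 (adjusted p from 0.0534 to 0.0981, log2 fold change from -0.34 to -0.22). Dnajb1 fell by 0.29 (adjusted p = 0.048), lost without any 1 of Trem2KO M1, M2, F1, F2 and F3 or Plcg2HET M1, M2, F1 and F2 (adjusted p from 0.0512 to 0.168, log2 fold change from -0.32 to -0.19). Hspa1a stood at -0.51 (adjusted p = 0.0517) and was called without Trem2KO F3 or Plcg2HET M2, M3 or F2 (adjusted p from 0.00349 to 0.0499). The count of genes was 4 without Trem2KO M1, M2, F1 or F2 or without Plcg2HET M1. With the 4 libraries of positive GC trend as Plcg2HET, 35.7% of all genes were called and 7 of the 10, all lower in Trem2KO: Hspb1 (-1.69), Hspa1a (-0.71), Hspa1b (-0.96), Hspa8 (-0.59), Dnajb1 (-0.35), Hspa5 (-0.42) and Pdia4 (-0.64). With M3 and F2 alone, 37.2% of all genes were called and 4 of the 10, also lower: Hsph1 (-0.65), Hspa5 (-0.81), Pdia4 (-0.67) and Hspd1 (-0.53). Microglial markers were lower in Trem2KO in 10 of 10 (median -0.79), and their part in the result was not tested.

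Between Plcg2KO and Trem2KO, 7.63% of all genes were higher and 8.82% lower in Plcg2KO, and 0 of the 10 genes were called by edgeR or DESeq2, with 0 at an unadjusted p under 0.05. The values ran from -0.37 for Hspb1 (95% interval -1.01 to 0.26) to 0.27 for Hspd1 (-0.02 to 0.56). With only these 2 groups fitted, Hspa5 (0.23, adjusted p = 0.0281) and Hspd1 (0.28, adjusted p = 0.0271) were called higher in Plcg2KO, in a fit that called 42.1% of all genes, so that 2 of 10 is below the share of all genes.

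The effect of genotype was compared between the sexes by an interaction term. For Plcg2HET, Plcg2KO and Trem2KO against WT, 0 of the 16316 genes had a sex difference at an adjusted p under 0.05 by edgeR. Among the 10 genes, 1 had an unadjusted p under 0.05 for Plcg2HET and 0 did for either knockout. That gene was Hspe1, chosen after its value was seen, with an effect of -0.42 in females and 0.29 in males (difference -0.71, SE 0.32, edgeR adjusted p = 0.839).

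The wider pathways were described from lists of genes outside the 10. In Plcg2HET against WT, 5 of 41 other cytosolic chaperones and co-chaperones were higher and 0 lower, with a list median of 0.12. They were Bag3 (0.77, adjusted p = 0.000384), a co-chaperone that routes clients to autophagy, the small heat shock protein gene Hspb6 (0.95, adjusted p = 0.00168), the HSP70 gene Hspa2 (0.38), and, named after their values were seen, Hsp90ab1 (0.28) and Dnajb5 (0.40). Of 34 other ER chaperones and unfolded protein response genes 5 were higher and 1 lower, median 0.02. Hyou1 (0.45, adjusted p = 0.00229), which encodes an ER HSP110-like chaperone, Creld2 (0.54) and Herpud1 (0.52), which acts in ER-associated degradation, had the smallest p. Of 21 other mitochondrial chaperones and proteases 2 were higher and 3 lower, median -0.00, with the protease gene Lonp1 at 0.51 (adjusted p = 0.00122), the disaggregase gene Clpb at 0.37 and Hscb, which acts in iron-sulfur cluster assembly, at -0.59. Of 14 tested genes of the integrated stress response 5 were higher and 0 lower, median 0.32, with Sesn2 at 0.49, Shmt2 at 0.44 and Cebpb at 0.73.

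Immediate early genes, which neurons switch on with activity, were higher in 9 of 16 and lower in 0, median 0.62, with Fosb at 1.19, Egr1 at 0.97 and Arc at 1.13. None of these lists was picked without knowledge of these data, and their shares with all 6 libraries are to be read against the 10.9% and 7.13% of all genes. The counts depended on the libraries. With the 4 Plcg2HET libraries of positive GC trend the cytosolic list had 16 higher and 7 lower and the ER list 11 and 8, and with M3 and F2 alone these were 12 and 1, and 8 and 4. The mitochondrial list had 8 higher and 5 lower with the 4 and 4 and 5 with M3 and F2. The immediate early list had 11 higher with the 4 and 6 with M3 and F2, and the integrated stress list 8 and 0. With GC and length offsets the cytosolic list had 15 higher and 0 lower. These counts stand beside 44.2%, 26.1% and 22.5% of all genes called in the same fits.

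The genes for heat shock factors and for their binding protein were not called against WT by edgeR or DESeq2 in any genotype. In Plcg2HET, Hsf1, the main activator of the heat shock response, stood at 0.28 (SE 0.13, adjusted p = 0.15), Hsf4 at 0.32 (adjusted p = 0.158), Hsf2 at 0.17, Hsf5 at 0.03 and Hsbp1, which encodes an inhibitor of HSF1, at -0.15. Of these 5, 2 had an unadjusted p under 0.05 in Plcg2HET, 2 in Plcg2KO (Hsf5 and Hsbp1) and 1 in Trem2KO (Hsf5). Other fits called some of them. In Plcg2HET 1 was higher with GC and length offsets, 1 was higher with the expected counts, 2 were higher with the 4 libraries of positive GC trend, and 1 was higher and 1 lower with M3 and F2. In Plcg2KO 1 was higher with the offsets and 1 with only WT and Plcg2KO fitted. The activity of these factors is set largely after transcription and was not measured.

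The same lists were counted in the knockouts. In Plcg2KO, where 5.44% of all genes were higher and 7.63% lower, the cytosolic list of 41 had 4 higher and 0 lower, with Cacybp (0.37), Dnajb5 (0.41) and Dnajb4 (0.39), the ER list of 34 had 1 and 3, with Sdf2l1 (-0.53), Edem1 (-0.45) and Erp29 (-0.34), and the mitochondrial list of 21 had 1 and 2, with Yme1l1 (0.40), Timm44 (-0.22) and Htra2 (-0.36). The integrated stress list of 14 had 0 higher and 1 lower, Atf3 (-1.14), and the immediate early list of 16 had 4 and 0, with Egr1 (0.73), Fosb (0.77) and Fosl2 (0.74). In Trem2KO, where 7.56% of all genes were higher and 8.16% lower, the cytosolic list had 0 higher and 2 lower, Hspb3 (-0.83) and Bag1 (-0.25). The ER list had 2 higher and 6 lower, with Dnajb11 (-0.43) and Sdf2l1 (-0.63), both ER co-chaperone genes, lower and Hyou1 (0.44) higher. The mitochondrial list had 0 and 3, with Timm44 (-0.23), Hscb (-0.48) and Dnajc19 (-0.31). The integrated stress list had 4 and 1, with Sesn2 (0.57), Cebpb (0.92) and Atf3 (-0.79), and the immediate early list 11 and 0, with Fos (0.99), Fosb (0.76) and Egr4 (0.98). Whether any list differed between genotypes was not tested.

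**Figure D5:**
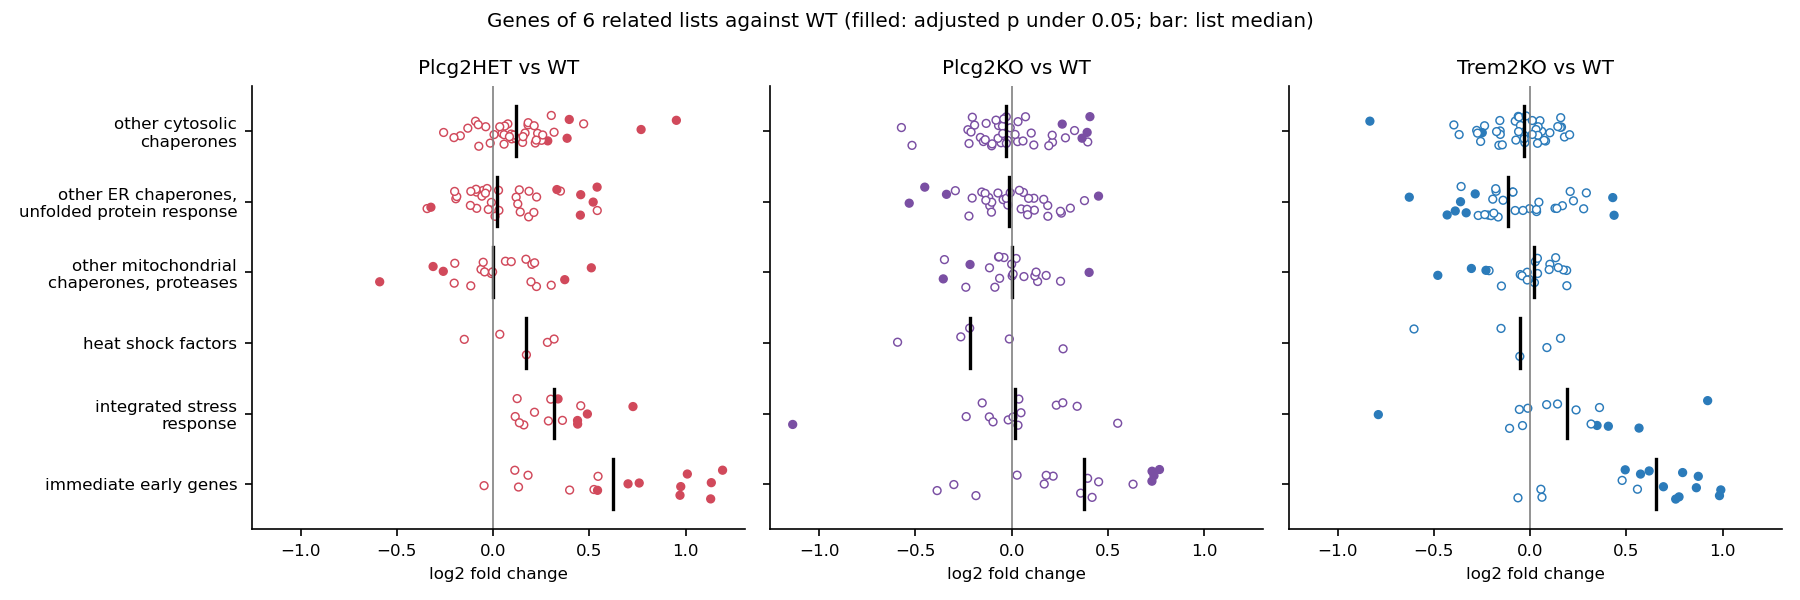
Log2 fold changes against WT of genes in 6 lists outside the 10 genes, each circle a gene, filled where the adjusted p is under 0.05, with a bar at the list median. In Plcg2HET the medians run from -0.00 (mitochondrial) to 0.62 (immediate early), and the immediate early median is also above 0 in Plcg2KO (0.38) and Trem2KO (0.66).

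Markers of cortical cell types were all detected, with 0 at 0 counts in any genotype. Their counts in Plcg2HET against WT are to be read against the 10.9% of all genes called higher and 7.13% called lower. Beside the higher chaperone values of Plcg2HET, meningeal fibroblast markers were higher in 5 of 10 and lower in 0, with a summed level of 184 to 255 CPM against 130 to 176 CPM in WT. In each knockout 8 of the 10 were higher against WT, with sums of 208 to 246 CPM in Trem2KO and 198 to 253 CPM in Plcg2KO. Over all genes 7.56% were called higher in Trem2KO and 5.44% in Plcg2KO. Astrocyte markers in Plcg2HET were higher in 2 of 10 and lower in 0, with sums of 5954 to 8013 CPM against 5708 to 6682 CPM. The median log2 fold change of that list was -0.07, with 4 of 10 markers above 0, so most did not follow the sum. Oligodendrocyte markers were lower in 3 of 10 and higher in 0, with sums of 4239 to 4742 CPM against 4731 to 5391 CPM. Excitatory neuron markers were higher in 1 and lower in 2 of 8, with sums of 5853 to 7394 CPM against 4512 to 6448 CPM. Microglial markers were higher in 2 and lower in 1 of 10, with sums of 1094 to 2024 CPM against 1045 to 1768 CPM. Pericyte and smooth muscle markers summed to 282 to 373 CPM in the 4 Plcg2HET libraries of positive GC trend and to 151 and 155 CPM in M3 and F2, against 172 to 235 CPM in WT, and endothelial markers to 162 to 195 CPM and to 111 and 112 CPM, against 143 to 239 CPM. The 4 libraries were thus above M3 and F2 in both vascular sums, as they were for Hspb1. In Plcg2HET against WT, 0 of 10 pericyte and smooth muscle markers were higher and 1 lower, and likewise for endothelial markers. Meningeal fibroblast sums split the same way, at 201 to 255 CPM in the 4 and 184 and 186 CPM in M3 and F2. Excitatory neuron sums did so narrowly, at 5956 to 7394 CPM and at 5853 and 5947 CPM. The heat shock factor and integrated stress lists did so too. Inhibitory neuron markers split the opposite way, at 730.1 to 911 CPM in the 4 and 1107 to 1134 CPM in M3 and F2, against 781 to 1053 CPM in WT, as did Hspd1. The part of these cell types in the results was not tested.

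The genes most like 1 gene of each compartment were sought over all 24 libraries after the genotype means were subtracted, by Pearson correlation of log2(CPM + 0.5), as a description with no test. For Hspb1 they were Gpx7 (0.93), Tbrg4 (0.916), Abhd14b (0.914), Pglyrp1 (0.899) and Dalrd3 (0.896). For Hspa5 they were Copb1 (0.872), Atp6v1h (0.835), Rnf14 (0.827), Hsph1 (0.823) and Prpf4 (0.82), so that the gene of the set most like BiP was the cytosolic HSP110 and not the other ER gene, Pdia4 (0.644). For Hspd1 they were Supt16 (0.961), Morf4l2 (0.957), Dld (0.951), Canx (0.95) and Ncl (0.941). Within the set, Hspa1a and Hspa1b had a value of 0.767, Hspb1 and Hspa8 0.768, and Hsph1 and Hspd1 0.798, whereas Hspb1 and Hspd1 had -0.806 and the head-to-head pair Hspd1 and Hspe1 had -0.161. The libraries differ in GC trend, from -0.586 to 0.567, and the part of this in these values was not tested.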

How the data were processed

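Gene expression was measured by RNA sequencing of cortex from 24 5xFAD mice. All main tests used the authors' deposited read counts, whole numbers with 1 row per gene. Per the submitters' processing notes the tools were featureCounts 2.0.3 and STAR 2.7.10a, and the build was mm10. A further table deposited by the authors holds expected counts, used rounded to whole numbers in an alternative fit, and TPM, used for levels between genes, per the file headers. The sources used here name neither the tool behind the expected counts nor the strand setting.

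Genes were kept by filterByExpr (minimum count 10, by genotype), scaled by TMM and fitted with edgeR 4.0.16 (R 4.3.3, robust quasi-likelihood, genotype means plus sex, all 24 libraries), with Benjamini-Hochberg adjustment over 16316 genes. The fit was run first on counts simulated from a common mean profile for all libraries, with no GC trend. For Plcg2HET against WT it recovered 38 of 67 changes of 1.5-fold, 59 of 67 of 2-fold and 63 of 66 of 4-fold. Of 169 calls, 9 were false. This run cannot show how the fit behaves where libraries differ in GC trend or cohort. Shown CPM values are TMM-scaled. The labels do not state that libraries came from separate animals beyond the number in each title, so p-values measure the spread between these libraries. Total counts limit the precision of the lowest genes, Hspb1 having 110 to 650 counts per library. GC content is the median over a gene's GENCODE M21 transcripts.

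The genes, lists and tests were chosen with earlier results of these data known. All 10 genes are named, and from each list the up to 3 called genes with the smallest p against WT, the heat shock factors in full, and the 5 genes most like Hspb1, Hspa5 and Hspd1. Of 209 list genes, 207 were tested. Alternatives were RLE size factors, other count filters, no sex term, a replicate block, males or females alone, DESeq2 1.42.0, a fit of only the pair of groups compared, the expected counts, leaving out libraries rich in Rn45s, and leaving out each library. Those added after seeing the data were GC and length offsets and the sets of Plcg2HET libraries by GC trend.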

Additional observations from a re-analysis of the deposited data

Results flagged for a closer look

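Of 40 groups of 6 values (10 genes in 4 genotypes), 1 held a library far from the others, where chance alone would give about 2. It was Hspa1b in Plcg2HET, where M1 stood at 27.9 CPM and the next highest library at 12.3 CPM, a gap of 0.752 of the group's range against a critical value of 0.625.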

How the results depend on the processing

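For the 10 genes in 6 comparisons, 1386 of 1500 values under alternatives stayed on their side of the threshold, 91 lost a call and 21 gained one in the same direction, and 2 called values changed sign. Another 90 values, called in neither fit, also changed sign. The 2 were in Trem2KO against Plcg2HET with M3 and F2 as the only Plcg2HET libraries, where the log2 fold change was 0.26 for Hspb1 and 0.0787 for Hspa8, neither called, and where 4 of the 10 and 37.2% of all genes were called. In males alone the counts called were 0 for Plcg2HET against WT and 1 for Trem2KO against Plcg2HET, and in females alone 2, 1 and, for Plcg2KO against Plcg2HET, 4. Over all genes the same fits called 0.0305% and 2.08% in males and 2.53%, 3.2% and 10% in females. With only the groups compared fitted they were 4 for Plcg2HET against WT, 1 for each knockout against WT, 2 for Trem2KO against Plcg2HET and 2 for Plcg2KO against Trem2KO. Those fits called 4.68%, 22.3%, 29.9%, 8.3% and 42.1% of all genes for Plcg2HET, Plcg2KO and Trem2KO against WT, Trem2KO against Plcg2HET and Plcg2KO against Trem2KO. The cause was not tested. Leaving out each library in turn gave 4 to 7 for Trem2KO against Plcg2HET. Of 33 same-code pairs of libraries, 22 correlated over 0.1 (median 0.155, range -0.379 to 0.565), against a median of -0.0133 for other pairs. Among the 24 libraries, 6 correlated best with their own code. These values do not settle whether the replicate codes pair the libraries. With the replicate block 7 genes were called for Plcg2HET against WT, 6 for Plcg2KO and 5 for Trem2KO against Plcg2HET, and 0 in the other comparisons. Over all genes the block called 14.8%, 28.7% and 13.3% in the first of these. For Plcg2KO against WT, Trem2KO against WT and Plcg2KO against Trem2KO it called 9.7%, 13.5% and 6.58%. Over all genes, 1772 were higher and 1164 lower in Plcg2HET against WT, and the count called was 736 when just those groups were fitted, 419 among females, 5 among males, 807 without the Rn45s-rich libraries, 1957 without Plcg2HET F1, and 7279 and 4392 with the sets of Plcg2HET libraries. Of 228 list counts under alternatives, 69 moved by over 1.5 times.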
